A study of Mus musculus with 12 samples.

Results

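Asb2, Npas4 and Hic1 are 3 of the 29522 genes with FPKM values (fragment counts scaled to exon length and to library depth) in 12 RNA libraries of mouse Th17 cells, and they were chosen by name as strongly ILA-induced genes. The values behind that choice were those of ILA against vehicle, so that comparison is described here and not tested. Naive CD4+ T cells had been isolated from spleens of wild-type C57BL/6J mice, grown in a Th17-polarising supplement (CytoBox Th17) and activated through CD3 and CD28. All 4 groups share this strain, genotype and culture, and each has 3 libraries: vehicle control, 200 uM ILA, 0.5 uM GSK805, and 200 uM ILA together with 0.5 uM GSK805 (GSK805+ILA). ILA is taken to mean indole-3-lactic acid, a tryptophan metabolite of gut bacteria. GSK805 inhibits RORγt, the transcription factor that defines Th17 cells. The sources used here do not state how long treatment lasted. The labels call the libraries biological replicates and name no animals, so a p-value measures the spread between these libraries, which may be technical.

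ASB2 is the substrate-recognition subunit of a Cullin-5 ubiquitin ligase that marks filamins, the actin cross-linkers, for degradation, and its gene was first described as induced by retinoic acid in human leukaemia cells. NPAS4 is a transcription factor of the bHLH-PAS family, which also holds the aryl hydrocarbon receptor (AhR), and it binds DNA with an ARNT-type partner. It is best known from neurons, where its gene is switched on by calcium entry as an immediate early gene. HIC1 is a zinc-finger repressor with a BTB domain that recruits CtBP and NuRD corepressors, and in mouse intestinal T cells its expression depends on retinoic acid.

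On GRCm38, Asb2 (ENSMUSG00000021200) spans chr12:103321142-103356001, Npas4 (ENSMUSG00000045903) chr19:4984355-4990316 and Hic1 (ENSMUSG00000043099) chr11:75164565-75169519, all on the minus strand. GENCODE gives them 11, 6 and 3 merged exons. The RefSeq promoter table used here holds 5 transcription starts for them, and 250 bases before each were searched on both strands for 4 motifs. RefSeq's Npas4 span reaches further upstream, to base 5003439, and a start there was not searched. These were GCGTG, the core bound by AhR with ARNT, TGACGT, the main part of a cAMP response element, AGGTCA, a core shared by ROR and retinoic acid receptors, and the E-box CACGTG. The windows are shown because the 3 genes moved with the same compound, and the motifs were chosen with the sequences in view. Capitals mark the matches, on either strand, in the direction of transcription (RefSeq, GRCm38.p6, minus strand). The Asb2 window is chr12:103356002-103356251, the first Hic1 window chr11:75170256-75170505 and the second chr11:75168153-75168402. For Npas4 only the 21 bases around its TGACGT pair are printed, chr19:4990133-4990153. The whole searched Npas4 window, chr19:4989972-4990221, lies inside the GENCODE gene span, so its matches are upstream of the RefSeq start only.
Asb2, first start: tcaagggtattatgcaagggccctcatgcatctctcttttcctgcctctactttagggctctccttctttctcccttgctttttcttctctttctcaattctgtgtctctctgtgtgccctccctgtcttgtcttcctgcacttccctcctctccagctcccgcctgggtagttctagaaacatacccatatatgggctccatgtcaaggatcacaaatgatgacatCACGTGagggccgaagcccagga
Hic1, first start: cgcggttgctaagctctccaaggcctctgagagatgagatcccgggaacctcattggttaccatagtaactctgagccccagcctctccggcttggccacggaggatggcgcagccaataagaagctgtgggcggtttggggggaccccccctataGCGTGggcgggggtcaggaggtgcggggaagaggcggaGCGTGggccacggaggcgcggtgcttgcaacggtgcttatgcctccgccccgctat
Hic1, second start: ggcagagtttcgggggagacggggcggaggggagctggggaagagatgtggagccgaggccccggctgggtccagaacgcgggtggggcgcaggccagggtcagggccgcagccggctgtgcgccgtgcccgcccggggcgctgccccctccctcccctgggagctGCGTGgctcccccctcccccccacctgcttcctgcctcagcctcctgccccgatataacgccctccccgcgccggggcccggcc
Npas4, TGACGT pair: cgACGTCAcgggaTGACGTcg

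The Asb2 window held 1 E-box, 23 bases before the start, and the window of its second start held none of the motifs. The Hic1 windows held GCGTG 94 and 56 bases before the first start and 84 bases before the second. The Npas4 window held TGACGT in both directions, read as ACGTCA 180 and TGACGT 169 bases before the start, and GCGTG read as CACGC 44 bases before it. Distances are to the first base of a match, and no matches overlap. No window held AGGTCA. Among 32851 promoter windows of the same length, 28.2% held GCGTG, 6.47% TGACGT, 14.0% AGGTCA and 6.02% CACGTG. A match is only a match of letters.

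Recovered depth was 17.84 to 23.49 M reads per library. Correlations of log2(FPKM + 1) across genes were 0.983 to 0.987 within groups and 0.940 to 0.981 between groups. The cells carried CD4 T cell markers in every library, and their sum was higher in the groups with ILA, as were the 3 genes. With GSK805 alone the sum also lay above vehicle, whereas Asb2 was lower there. The 8 markers summed to 417 to 423 FPKM with vehicle, 743 to 770 with ILA, 451 to 471 with GSK805 and 672 to 697 with GSK805+ILA. Markers of CD8 T and NK cells summed to 3.91 to 5.35 FPKM with vehicle, 1.46 to 2.04 with ILA, 3.99 to 4.68 with GSK805 and 1.96 to 2.08 with GSK805+ILA. Myeloid markers summed to 4.02 to 5.26 FPKM with vehicle, 2.31 to 3.20 with ILA, 3.50 to 3.71 with GSK805 and 3.36 to 3.55 with GSK805+ILA. B cell markers summed to 2.54 FPKM at most. Neuronal markers summed to 4.82 FPKM at most, nearly all from Gad1, stromal markers to 0.118 and muscle markers to 0.645 FPKM at most. The part of these shifts in the results was not tested, and in bulk RNA a change in the share of a cell type and a change of RNA per cell cannot be told apart.

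Asb2 was low without ILA and among the more abundant transcripts with it. Its level was 3.41, 4.54 and 4.50 FPKM in the 3 vehicle libraries (268 to 330 reads) and 54.7, 60.1 and 59.7 FPKM in the ILA libraries (3772 to 4187 reads). It was 2.29, 2.33 and 2.39 FPKM with GSK805 alone (178 to 190 reads) and 25.8, 26.6 and 29.6 FPKM with GSK805+ILA (1699 to 2467 reads). No 2 groups overlapped, and the order of levels was ILA, GSK805+ILA, vehicle, GSK805. Of the tested genes 38.5% lay below Asb2 with vehicle and 94.0% with ILA. The lowest vehicle library was replicate 1, whose depth (22.2 M reads) was within the range of the others.

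Npas4 was near the bottom of the tested genes without ILA. Its level was 0.349, 0.354 and 0.246 FPKM with vehicle, which is 21 to 32 reads per library, and 8.52, 7.57 and 10.6 FPKM with ILA (589 to 780 reads). It was 0.857, 0.635 and 0.679 FPKM with GSK805 (57 to 83 reads) and 8.34, 7.25 and 8.64 FPKM with GSK805+ILA (642 to 840 reads). The ILA and GSK805+ILA libraries overlapped, and the GSK805 libraries all lay above the vehicle libraries. Only 1.42% of tested genes lay below Npas4 with vehicle, against 54.8% with ILA. Npas4 reached the minimum for testing, a mean of 1 FPKM in a group, only through the ILA and GSK805+ILA groups, while Asb2 and Hic1 reached it in all 4.

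Hic1 had a vehicle level that overlapped that of Asb2. It stood at 3.33, 5.78 and 5.81 FPKM with vehicle (277 to 449 reads) and at 28.0, 29.6 and 29.8 FPKM with ILA (1994 to 2267 reads). With GSK805 it was 4.29, 5.50 and 4.49 FPKM, and with GSK805+ILA 20.7, 23.8 and 23.6 FPKM. The vehicle and GSK805 libraries overlapped, and the GSK805+ILA libraries all lay below the ILA libraries. The low vehicle library was again replicate 1.

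**Figure D1:**
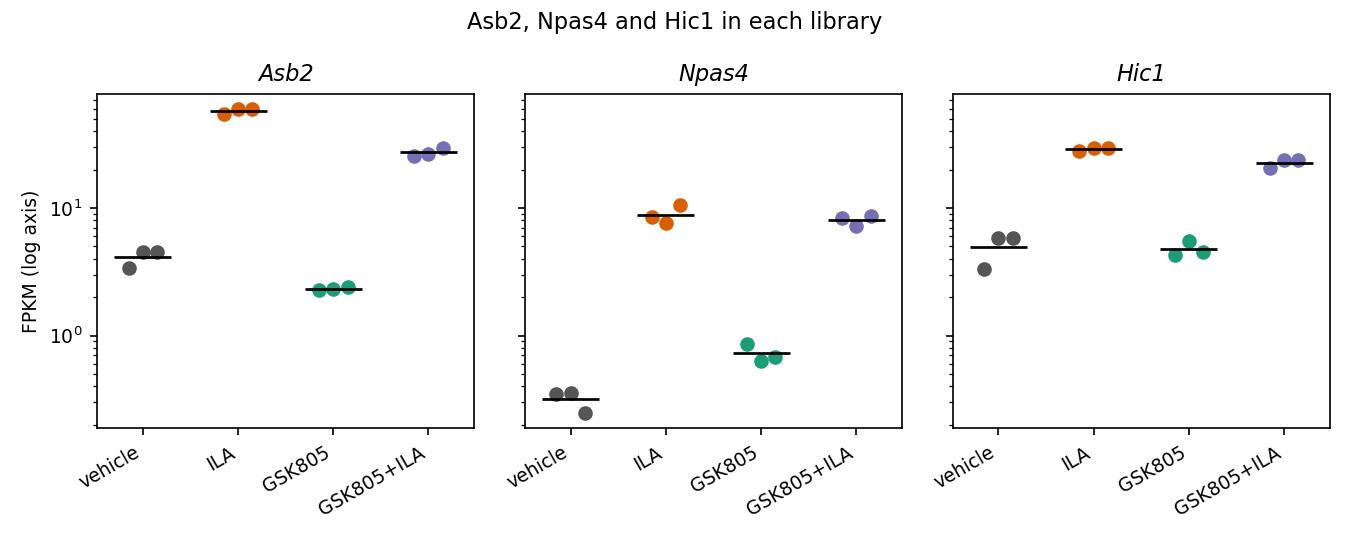
FPKM (log axis) of Asb2, Npas4 and Hic1 in each of the 12 libraries by group, where points are libraries and lines are group means. The 6 libraries with ILA lie above the 6 without it for each gene, and for Npas4 the GSK805 libraries also lie above the vehicle libraries.

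In the comparison that chose them, ILA against vehicle, the ratio of mean FPKM was 28.1 for Npas4 (8.89 ± 1.53 against 0.316 ± 0.0607 FPKM, SD, n = 3). It was 14.0 for Asb2 (58.1 ± 3.00 against 4.15 ± 0.640 FPKM) and 5.86 for Hic1 (29.1 ± 1.01 against 4.97 ± 1.42 FPKM). On the log2(FPKM + 1) scale, which shrinks low genes, the order was Asb2 (3.53), Npas4 (2.90) and Hic1 (2.36). Of 13511 genes tested, 57.9% were called here (limma, adjusted p under 0.05), 33.9% as higher, and 36.5% were higher with groups that did not overlap. The median change over all of them was 0.06, or -0.07 after each library was centred on its median. By size of rise the 3 genes ranked 2, 5 and 15. With a pseudocount of 0.1 in place of 1 they ranked 17, 5 and 99.

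GSK805+ILA against GSK805 asks whether the genes were higher with ILA while RORγt was inhibited, in libraries outside the comparison that chose them. All 3 were. Earlier results of these data were known at the choice. The fit takes its spread from all 12 libraries, so its p-values are not fully independent of the choice. Fitted on these 2 groups alone, limma adjusted p was 2.67e-06 for Asb2 and 3.1e-05 for Hic1. Asb2 was 27.4 ± 2.04 FPKM with both compounds and 2.34 ± 0.0515 FPKM with GSK805 alone (SD, n = 3), a ratio of 11.7, with single pairs of libraries between 10.8 and 12.9. On the log2(FPKM + 1) scale its difference was 3.08 (SE 0.09, limma adjusted p = 5.4e-09). Npas4 was 8.08 ± 0.734 against 0.724 ± 0.118 FPKM, a ratio of 11.2, and its log2 difference was 2.40 (SE 0.11). Npas4 passed the filter only through the groups with ILA, so the p-value of the filtered fit is not given. Without a filter limma adjusted p for Npas4 was 1.16e-06. Hic1 was 22.7 ± 1.75 against 4.76 ± 0.647 FPKM, a ratio of 4.76, and its log2 difference was 2.04 (SE 0.15, limma adjusted p = 2.7e-06). The groups did not overlap for any of the 3 genes. Across all tested genes 39.5% were called in this comparison, 22.0% as higher and 17.5% as lower, and 28.2% were higher with groups that did not overlap. A call is therefore common here. By rise the 3 genes ranked 2, 3 and 7 of 13511, or 4, 9 and 60 with a pseudocount of 0.1. They were chosen as strongly ILA-induced genes, so high ranks here are not independent of the choice. Of the 8 CD4 T cell markers 7 were called higher in the same comparison, Cd4 most (log2 1.13), and their part in the result was not tested. Cd8b1, the 1 tested marker of CD8 T and NK cells, was lower (log2 -0.89, limma adjusted p = 0.00014), and its part was likewise not tested.

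**Figure D2:**
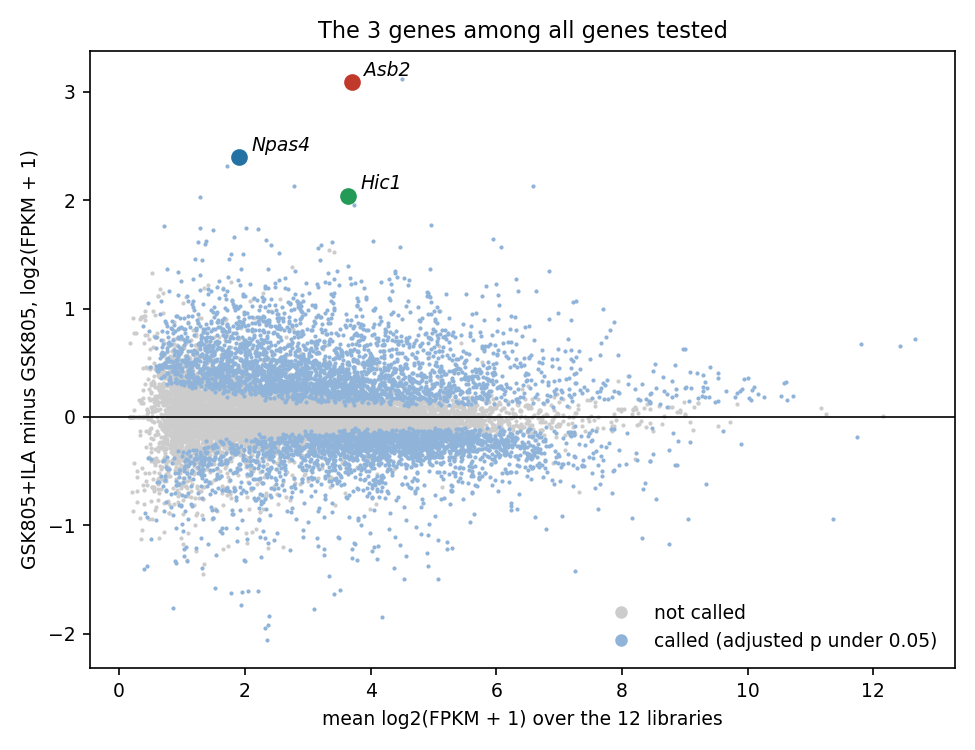
Each point is 1 of 13511 tested genes, with its mean log2(FPKM + 1) over the 12 libraries on the x axis and the difference between GSK805+ILA and GSK805 on the y axis. Asb2 (3.08), Npas4 (2.40) and Hic1 (2.04) lie near the upper edge, above most genes of like abundance.

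With GSK805 alone Asb2 was lower and Hic1 did not pass. Npas4 was higher in FPKM but did not pass without a filter. This comparison uses the same vehicle libraries as the choice, which favours low vehicle values, so its p-values are not independent of it. Asb2 was 1.78-fold lower with GSK805 than with vehicle in mean FPKM (log2 difference -0.62, SE 0.09, limma adjusted p = 0.00055). Npas4 was 2.29-fold higher in mean FPKM (log2 difference 0.39, SE 0.11), at 0.316 FPKM with vehicle and 0.724 with GSK805. Npas4 passed the filter only through the groups with ILA, so the p-values of the filtered fits are not given. Without a filter it did not pass (limma adjusted p = 0.069). The call of the filtered fit was also lost without vehicle replicate 2, vehicle replicate 3, GSK805 replicate 1 or GSK805 replicate 3, and after median centring of the libraries. Hic1 did not pass (log2 difference -0.03, 95% interval -0.37 to 0.31, limma adjusted p = 0.92). In this comparison 22.8% of tested genes were called, 15.7% as higher and 7.08% as lower, and 25.8% were higher and 12.8% lower with groups that did not overlap. Higher calls made up 68.9% of calls, 55.9% after quantile normalization and 40.3% after median centring.

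With GSK805+ILA Asb2 was lower than with ILA alone, and Hic1 and Npas4 did not pass. This comparison uses the same ILA libraries as the choice, which favours high ILA values and so a lower value in the other group, and its p-values are not independent of it. Asb2 was 2.13-fold lower with GSK805+ILA than with ILA alone (log2 difference -1.06, SE 0.09, limma adjusted p = 3.5e-05), at 47.0% of its level with ILA. Hic1 was at 77.9% of its ILA level with no overlap of libraries, but did not pass (log2 difference -0.35, 95% interval -0.69 to -0.01, limma adjusted p = 0.14). It passed when only the groups compared were fitted (adjusted p = 0.014), with voom on recovered reads (0.012) and without vehicle replicate 1 (0.0138), and over all alternatives adjusted p ran from 0.012 to 0.325. Npas4 was at 90.9% of its ILA level with overlapping libraries (log2 difference -0.12, 95% interval -0.36 to 0.13, limma adjusted p = 0.51). Of all tested genes 18.6% were called here, 9.92% as higher and 8.64% as lower, and 17.2% were lower with groups that did not overlap.

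**Figure D3:**
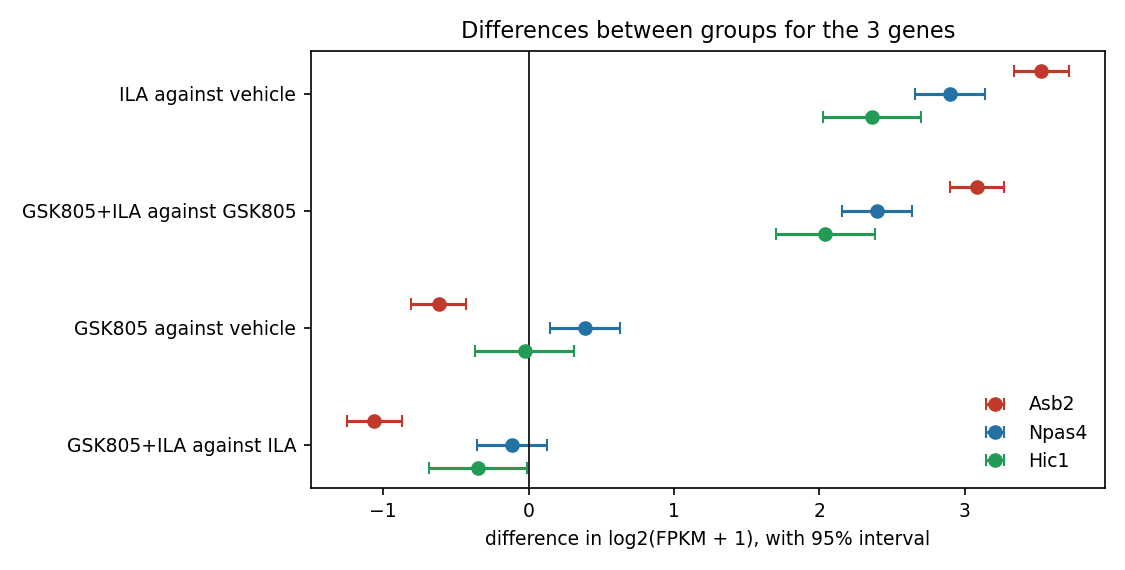
Differences in log2(FPKM + 1) between groups for Asb2, Npas4 and Hic1, with points for the estimates and bars for 95% intervals from the fit to all 12 libraries. Asb2 lies below 0 in both comparisons of GSK805, whereas Npas4 (0.39) lies above 0 for GSK805 against vehicle. ILA against vehicle is the comparison that chose the genes.

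The size of the ILA rise with and without GSK805 depended on the scale. In FPKM, Asb2 gained 54.0 with ILA alone and 25.0 in the presence of GSK805, which is 46.3% of the former. Hic1 gained 24.2 and 17.9 FPKM (74.2%), and Npas4 8.57 and 7.35 FPKM (85.8%). On the log2(FPKM + 1) scale the rise under GSK805 was smaller by 0.44 for Asb2 (difference -0.44, SE 0.12), by 0.50 for Npas4 (-0.50, SE 0.16) and by 0.32 for Hic1 (-0.32, SE 0.22). With a pseudocount of 0.1 the Npas4 difference was -1.11 and that of Asb2 -0.29. So Asb2 kept the smallest share of its rise in FPKM, whereas in ratios Npas4 did, whose level without ILA was 2.29-fold higher under GSK805. These differences contain the comparison that chose the genes and were not tested.

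Each locus held a noncoding gene that was higher with ILA, and the Asb2 and Hic1 loci also held others. AC124502.5 (ENSMUSG00000118364), an unclassified transcript at chr19:4991357-4993113, lies 1041 bases upstream of the GENCODE Npas4 gene on the same strand and inside RefSeq's wider Npas4 span. It had 7, 6 and 7 reads with vehicle, 253, 264 and 245 with ILA, 30, 15 and 19 with GSK805, and 198, 283 and 279 with GSK805+ILA. In FPKM it was 0.180 ± 0.0134, 7.49 ± 0.721, 0.546 ± 0.170 and 6.66 ± 0.567 in that order (SD, n = 3), and these means stood in the same order as those of Npas4. It passed the filter only through the groups with ILA, so no test is given. Whether it is a separate transcript or part of a longer Npas4 transcript cannot be told apart from these values.

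Gm15523 (ENSMUSG00000090185), an antisense gene within Asb2 whose exons share no base with those of Asb2, had 0 reads in all 3 vehicle libraries. It had 26, 27 and 26 reads with ILA, 1, 0 and 0 with GSK805, and 8, 7 and 10 with GSK805+ILA. The GSK805+ILA libraries lay above the GSK805 libraries and below the ILA libraries, as for Asb2. It reached 1 FPKM only with ILA, so no test is given. Gm29508, 6373 bases beyond the end of Asb2, had 2 reads at most in any library. The sources used here do not state strand handling, so reads of unspliced Asb2 and reads of Gm15523 cannot be told apart. Upstream of Hic1, in the opposite direction, 1700016P03Rik starts 3041 bases away and its span holds Mir132 and Mir212. Its mean was 16.5 FPKM with vehicle, 23.3 with ILA, 12.3 with GSK805 and 19.2 with GSK805+ILA. The log2 difference between GSK805+ILA and GSK805 was 0.61, a smaller value than that of Hic1 (2.04). Mir212 had means of 24.2, 23.6, 9.93 and 22.2 FPKM in the same order of groups, where ILA was not above vehicle. Mir132 had 6 to 18 reads per library with vehicle, 16 to 23 with ILA, 1 to 19 with GSK805 and 18 to 28 with GSK805+ILA. AC124502.5 was named by the search for genes nearest in pattern, which used its values, so its likeness to Npas4 is a description. The other noncoding genes were picked after their values were seen.

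**Figure D4:**
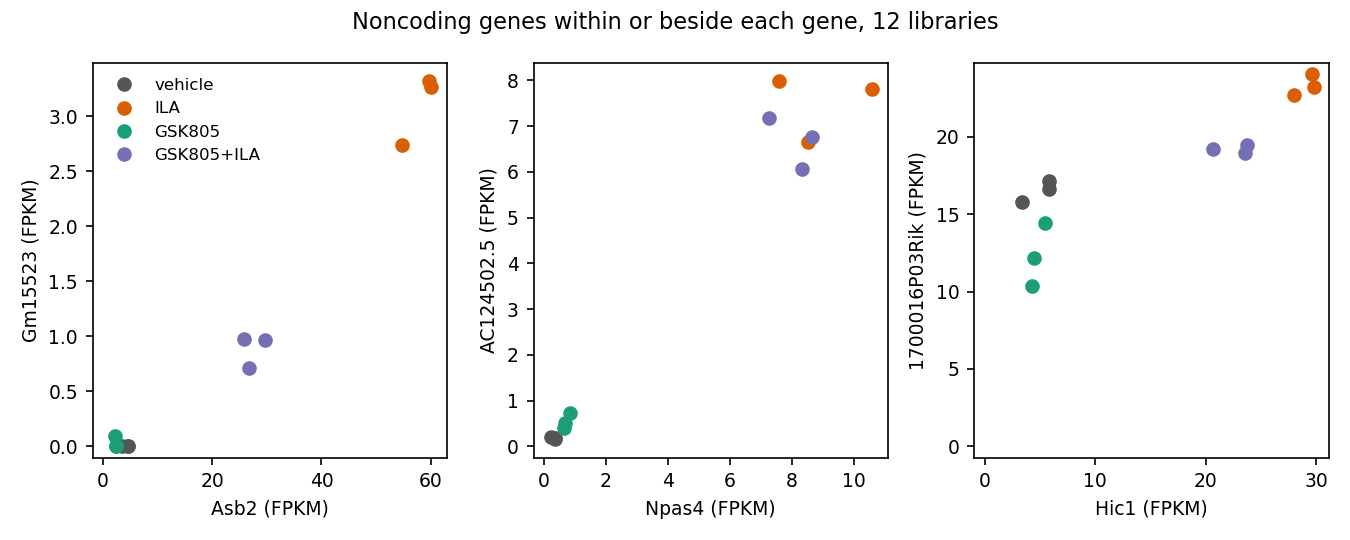
FPKM of Gm15523, AC124502.5 and 1700016P03Rik against Asb2, Npas4 and Hic1 in the 12 libraries (linear axes, 1 point per library, coloured by group). AC124502.5 follows Npas4 from 0.180 FPKM with vehicle to 7.49 FPKM with ILA, and 1700016P03Rik changes over a narrower range than Hic1.

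Of the nearest 2 protein-coding genes on each side of the 3 genes, 8 of 12 were tested. In GSK805+ILA against GSK805, where 39.5% of all genes were called, 2 of these 8 were: Otub2 beside Asb2 was higher (log2 0.50, limma adjusted p = 0.0027) and Mrpl11 beside Npas4 lower (-0.29, adjusted p = 0.035). Otub2, a deubiquitinase gene 32681 bases away, was at 1.65 FPKM with GSK805 and 2.75 with GSK805+ILA. Smg6, a nonsense-mediated decay gene that ends 117 bases from Hic1 on the other strand, did not pass (log2 0.10, adjusted p = 0.15). RefSeq's Hic1 reaches into Smg6, whose level was 8.91 to 10.7 FPKM over the groups.

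The genes that encode the ASB2 ligase and its filamin substrates were called about as often as all genes (39.5%). Of the 8 genes of that list, 1 was higher and 2 lower with GSK805+ILA than with GSK805, with a median log2 difference of -0.10 against 0.02 over all genes. Flna, which encodes filamin A, was higher (141 ± 5.88 FPKM with GSK805+ILA, 122 ± 5.78 with GSK805, SD, n = 3, limma adjusted p = 0.012). Eloc, which encodes Elongin C, was lower (-0.20, adjusted p = 0.029), while Cul5, the cullin itself, was at -0.05 (adjusted p = 0.67). After median centring 4 of the list were lower. Of 7 other Asb genes tested none was higher and 2 were lower, Asb3 (-0.47, adjusted p = 0.0016) and Asb6 (-0.21, adjusted p = 0.017).

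Among the relatives of Npas4, 3 of 7 tested bHLH-PAS genes were higher and 1 lower with GSK805+ILA than with GSK805, against 22.0% and 17.5% of all genes. The median log2 difference of the 7 was 0.07, against 0.02 over all genes. Ahrr, the AhR repressor and itself an AhR target, rose most (log2 1.08, limma adjusted p = 9.8e-07). Arnt, the partner of this family, was higher (0.28, adjusted p = 0.0016), as was Npas2 (0.37, adjusted p = 0.019), whose call was lost after quantile normalization (adjusted p = 0.053). Arntl, a circadian clock factor, was lower (-0.32, adjusted p = 0.0027). The other immediate early genes, which calcium and receptor signals switch on, were called in both directions. Of 17 tested, 4 were higher and 7 lower, with a median of 0.02. Ier2 (0.54), Fos (0.43), Btg2 (0.42) and Nr4a1 (0.34) were higher, and Nr4a3 (-0.47), Arc (-0.44) and Gadd45b (-0.44) were among the lower, with adjusted p of 0.01 or less for each.

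Among the BTB zinc-finger genes related to Hic1, 5 of 10 were higher and 3 lower with GSK805+ILA than with GSK805, against 22.0% and 17.5% of all genes. The median log2 difference of the 10 was 0.14, against 0.02 over all genes. Zbtb32, a repressor of T cell responses, fell from 35.4 ± 2.46 to 9.12 ± 0.190 FPKM (SD, n = 3, log2 -1.85, limma adjusted p = 5.5e-07). Zbtb20 (0.53), Zbtb7b (0.38, the CD4 lineage factor ThPOK) and Patz1 (0.37) were higher, and Bcl6 (0.17) was higher but not after median centring (adjusted p = 0.12). Of 6 tested corepressor and reported target genes of HIC1, 1 was higher (Mta1, a NuRD subunit, 0.31) and 2 lower (Chd4, the NuRD remodeller, -0.47, and Cdkn1a, -0.54). Sirt1, reported as repressed by HIC1, was at -0.23 (adjusted p = 0.07).

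Retinoic acid genes and AhR targets were counted because both pathways are named in the background above. Of 9 tested retinoic acid genes 3 were higher and 2 lower with GSK805+ILA than with GSK805. Across all genes 22.0% were called higher and 17.5% lower. The median log2 difference of the 9 was 0.10, against 0.02 over all genes. Tgm2, which encodes transglutaminase 2, rose by 1.20 on the log2 scale (limma adjusted p = 3.1e-06), and Itgb7 and Itga4, the chains of the gut-homing integrin, by 0.96 and 0.93. Rara, which encodes a retinoic acid receptor, was lower (-0.27), as was Crabp2, a retinoic acid carrier (-0.63). Of 5 tested AhR targets 3 were higher: Cyp1b1 (3.12), Cyp1a1 (1.64) and Ahrr (1.08), and Cyp1b1 was the gene that ranked above Asb2. Tiparp was at 0.08 (adjusted p = 0.44). With GSK805 against vehicle 4 of the 5 were called higher, against 15.7% of all genes in the main fit. After quantile normalization 3 were higher, and after median centring 3 were higher and 1 lower.

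**Figure D5:**
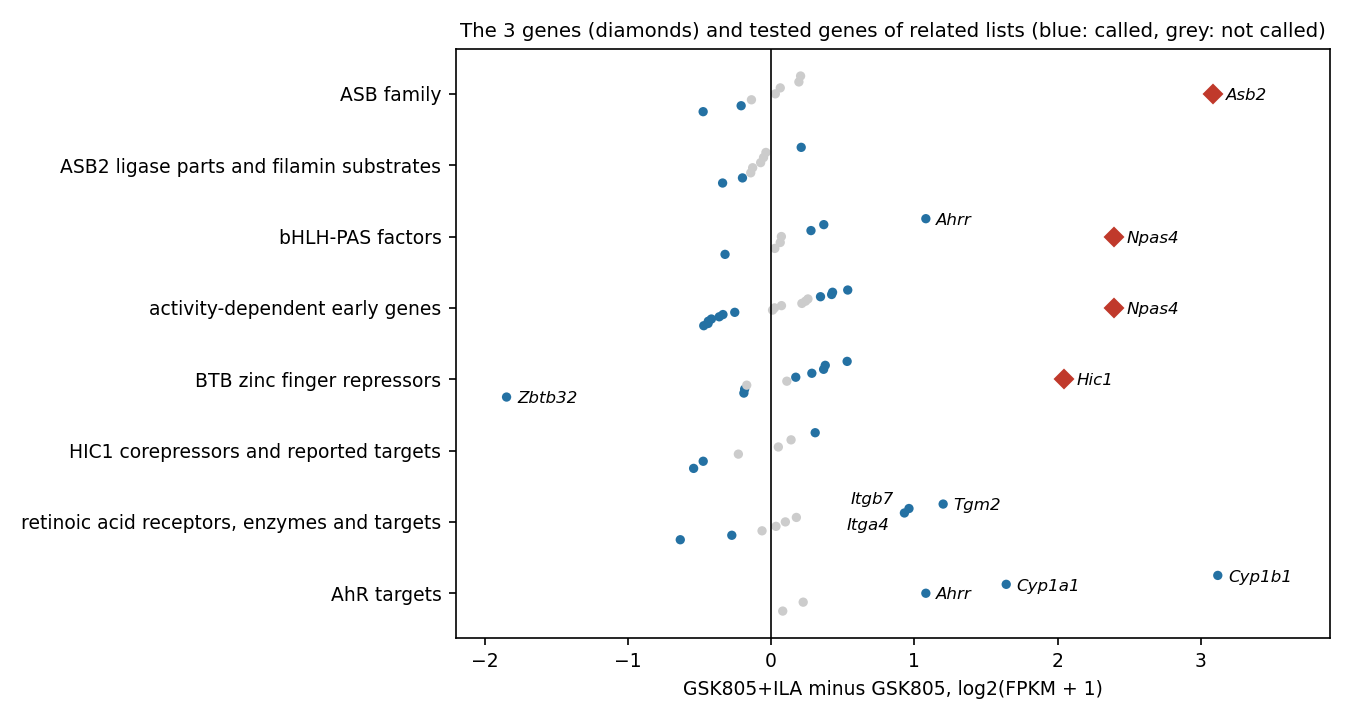
Differences in log2(FPKM + 1) between GSK805+ILA and GSK805 for tested genes of 8 lists (blue called, grey not called), with Asb2, Npas4 and Hic1 as red diamonds. The 3 genes lie to the right of the relatives in their own lists, and Cyp1b1 (3.12) lies beside Asb2.

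The Th17 genes, a list of 14 that all were tested, stood mostly lower in each of the 4 comparisons, whether Asb2 was lower or higher. With ILA against vehicle, where Asb2 was higher, 9 were lower and 4 higher (median log2 difference -0.81 against 0.06 over all genes). There 57.9% of all genes were called, 33.9% as higher. With GSK805 against vehicle 8 were lower and 1 higher, where 7.08% of all genes were called lower and 15.7% higher (median log2 difference -0.92 against 0.05 over all genes). With GSK805+ILA against ILA 11 were lower and 1 higher, where 8.64% of all genes were called lower and 9.92% higher (median -0.58 against 0.02). Il17a, the signature cytokine gene, was lower by both (log2 -2.78 and -1.97, limma adjusted p = 9.7e-07 and 1.3e-05). With GSK805+ILA against GSK805, where Asb2, Npas4 and Hic1 were higher, 9 of the 14 were lower, against 17.5% of all genes, and 2 higher, Maf (0.95) and Stat3 (0.21), the latter not after median centring (adjusted p = 0.069).

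The genes nearest in pattern were found among 7213 tested genes that reached 5 FPKM in a group, by the root mean square difference over the 9 treated libraries, each as log2(FPKM + 1) less the vehicle mean. Nearest to Npas4 was AC124502.5 (0.17), followed by Gimap4 (0.36), Il12rb2 (0.48), Treml2 (0.54) and Fyb (0.56). Nearest to Hic1 were Fyb, a T cell adaptor gene (0.19), Il12rb2, an interleukin-12 receptor chain (0.22), Cnn2, a calponin (0.26), Rasgrp4 (0.29) and Myo1f (0.31). Asb2 had no close match: AC124502.5 and Npas4 were nearest, each at 0.72, then Il12rb2 (0.79), Hic1 (0.80) and Fyb (0.83). For Fyb the mean was 13.0 FPKM with vehicle, 76.0 with ILA, 15.2 with GSK805 and 54.4 with GSK805+ILA. The measure includes the comparison that chose the 3 genes, so likeness is a description.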

How the data were processed

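The authors deposited 1 table of FPKM values per library, used as given. The tools were FastQC 0.11.2 for read quality and Bowtie for alignment to mm10, per the submitters' processing notes. The sources used here do not state Bowtie's version, how reads were counted, the annotation or the strand. With GENCODE vM21 exon lengths (GRCm38), 98.8% of values below 1000 reads lay within 0.1 read of an integer when 1 depth was set for each library, and the read numbers come from there. No 2 libraries were identical.

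Values were taken as log2(FPKM + 1). The 13511 genes whose mean reached 1 FPKM in any group were fitted over all 12 libraries with 1 mean per group in limma 3.58.1 (R 4.3.3; trend and robust moderation). Benjamini-Hochberg adjustment covered all of them, and a gene was called below 0.05. The procedure was also run on simulated data. The spread between simulated libraries was set and not taken from these libraries, so that run does not measure error rates here. Folds given as ratios are of mean FPKM.

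The genes, lists and motifs were chosen with earlier results of these data known. Genes named besides the 3 are members of the lists, the nearest 2 protein-coding genes on each side, and the 5 nearest in pattern to each gene, leaving out ribosomal protein genes, receptor segments, pseudogenes and Gm and Rik names. Listed genes below the filter or without a row were not analysed here. A listed gene that stays in the fits and list counts is not reported here.

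Alternatives were a pseudocount of 0.1, no filter, a filter at 5 FPKM, plain limma (no trend, not robust), quantile normalization, median centring, a replicate block, a fit of the compared groups alone, voom on recovered reads, and leaving out each library. Sequences are from RefSeq (GRCm38.p6), which had starts for all 3 genes. Tables and figures were made in Python 3.11.15 (pandas 2.3.3, numpy 2.4.6, matplotlib 3.10.9).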

Additional observations from a re-analysis of the deposited data

How the results depend on the processing

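The calls of all 3 genes in GSK805+ILA against GSK805 held under all 21 alternatives, though Npas4 passes a filter only through the groups with ILA. Both calls of Asb2 in the comparisons of GSK805 held as well. The alternatives reuse vehicle or ILA libraries of the choice, so they cannot show that these Asb2 calls are independent of it. Leaving out single libraries gave 1604 to 2580 genes called in GSK805+ILA against ILA, with the fewest without GSK805+ILA replicate 3. ILA against vehicle for Asb2 was 3.79 with a pseudocount of 0.1, 3.42 after quantile normalization, 3.39 after median centring, 3.82 with voom, and 3.42 to 3.58 without single libraries. For Npas4 it was 4.43 with a pseudocount of 0.1, 2.76 after median centring and 4.78 with voom. For Hic1 it was 2.57 with a pseudocount of 0.1, 2.60 with voom, and 2.15 to 2.47 without single libraries. The difference of the ILA rises was -0.29 (pseudocount of 0.1) and -0.27 (voom) for Asb2, with -0.50 to -0.34 without single libraries, -1.11 (pseudocount of 0.1) and -1.31 (voom) for Npas4, and -0.43 to -0.11 without single libraries for Hic1. GSK805 against vehicle for Npas4 was 0.39 without a filter and 0.31 after median centring, neither passing, and 0.33 to 0.42 without single libraries; it has no value with only the groups compared, since the filter removes the gene there. For Hic1 it ran from -0.24 to 0.08 without single libraries, and it was above 0 without vehicle replicate 2 (0.0798), vehicle replicate 3 (0.0822), GSK805 replicate 1 (0.0311) or GSK805 replicate 3 (0.0043). GSK805+ILA against ILA for Npas4 ran from -0.21 to 0.0033, above 0 without ILA replicate 3, and for Hic1 it was -0.35 with only the groups compared, -0.36 with voom, and -0.38 to -0.29 without single libraries. The cause was not tested. Across the tested genes same-numbered libraries did not deviate together (18 pairs, correlation -0.0818 to 0.0785), so the numbers are not read as pairs. For Asb2 and Hic1, however, replicate 1 was the lowest library in each of the 4 groups. A replicate block gave an SE of 0.0639 for Asb2 and 0.1125 for Hic1, against 0.0854 and 0.1532 in the main fit. Hic1 in GSK805+ILA against ILA then had a limma adjusted p of 0.0619. With the replicate number as a block, 7793 genes were called in ILA against vehicle, 5343 in GSK805+ILA against GSK805, 3081 in GSK805 against vehicle and 2513 in GSK805+ILA against ILA, and no call of the 3 genes changed. Of 756 counts of list members under alternatives 702 were within 1.5 times the main count. These counts pool higher and lower calls, so they do not show whether directions held. Higher calls were 58.6% of calls in ILA against vehicle, 46.3% after quantile normalization and 40.9% after median centring, and 55.7%, 46.8% and 41.6% in GSK805+ILA against GSK805. Depth limits Npas4 most, with 21 to 32 reads per vehicle library.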
